A study of Mus musculus with 4 samples.

Results

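The genes of the cytosolic ribosomal proteins were examined in mouse embryonic stem (ES) cells of 3 BAF250 genotypes. BAF250 is the ARID-domain subunit of the BAF chromatin remodelling complex. A gene was taken as a member when its platform symbol was Rpl or Rps followed by a number, with an optional letter and an optional L suffix, or was Rplp0, Rplp1, Rplp2 or Rpsa. Genes of the S6 kinases and pseudogenes were left out. The rule found 46 of the 18194 genes with a probe set of a single gene, and 44 of them were among the 13730 genes bright enough to be tested. No measured value entered the rule beyond the choice of the brightest probe set of each gene.

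RNA of 4 cultures was hybridised to 1 Affymetrix array each. Both copies of BAF250 were knocked out in 2 lines named ko1 and ko2, 1 copy in a heterozygous line, and none in a wild type line. All were kept on gelatin with no feeder layer, and their medium held serum and leukaemia inhibitory factor (LIF), which sustains the ES cell state. The labels do not say whether BAF250 means Arid1a or Arid1b, which allele was made, or whether the lines are single clones, and nothing says that any culture was repeated. P-values therefore rest only on the spread between ko1 and ko2, which was largely borrowed across genes. The wild type and heterozygous cultures, with 1 array each, were taken to vary by as much.

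Ribosomal proteins join ribosomal RNA in the small and large subunits of the cytosolic ribosome, which are assembled mostly in the nucleolus. Their genes lie scattered over the genome and yield short, very abundant mRNAs. In mammals most of these mRNAs begin with a C and a run of pyrimidines (C or T in the DNA), the terminal oligopyrimidine or TOP motif, through which mTOR signalling and LARP1 set their translation. The amount of an mRNA, which an array measures, does not report this control.

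The members lay on 17 chromosomes, and all 46 matched a RefSeq gene by its ID. Promoter windows in the RefSeq table of build GRCm38.p6, from 250 bases before to 50 bases after each annotated start, were found for 40 of the 46. The sequences below run from 50 bases before to 20 bases after the start, read 5′ to 3′ on the gene's strand. They show members picked for a pyrimidine run at the start, and then members with outlying values. Capitals mark the longest run of C and T that touches the 10 bases on either side of the start. The first set holds members with a C at the start and at least 4 pyrimidines after it: Rpl35 (chr2:39005112-39005181, minus strand), Rps10 (chr17:27635225-27635294, minus strand), Rps18 (chr17:33955646-33955715, minus strand) and Rplp2 (chr7:141447601-141447670, plus strand).
Rpl35: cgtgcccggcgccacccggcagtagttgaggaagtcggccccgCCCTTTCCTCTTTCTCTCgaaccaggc
Rps10: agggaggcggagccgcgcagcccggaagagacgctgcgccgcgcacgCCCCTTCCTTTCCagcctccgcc
Rps18: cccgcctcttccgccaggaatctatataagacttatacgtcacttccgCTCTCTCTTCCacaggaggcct
Rplp2: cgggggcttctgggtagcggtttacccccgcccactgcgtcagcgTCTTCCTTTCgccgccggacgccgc

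The second set holds the 6 members with the largest relative difference of homozygous minus wild type, in either direction, among those with a window and above background on all 4 arrays: Rpl41 (chr10:128549149-128549218, minus strand), Rps26 (chr10:128626487-128626556, minus strand), Rpl27a (chr7:109519145-109519214, plus strand), Rpsa (chr9:120127716-120127785, plus strand), Rpl37 (chr15:5116563-5116632, plus strand) and Rps2 (chr17:24720013-24720082, plus strand).
Rpl41: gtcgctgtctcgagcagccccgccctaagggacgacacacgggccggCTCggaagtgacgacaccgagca
Rps26: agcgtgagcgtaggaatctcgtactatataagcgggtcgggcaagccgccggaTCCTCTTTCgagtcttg
Rpl27a: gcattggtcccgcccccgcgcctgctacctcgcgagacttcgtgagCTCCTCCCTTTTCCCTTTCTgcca
Rpsa: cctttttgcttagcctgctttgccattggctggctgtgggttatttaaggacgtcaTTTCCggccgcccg
Rpl37: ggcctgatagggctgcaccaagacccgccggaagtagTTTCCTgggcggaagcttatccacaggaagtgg
Rps2: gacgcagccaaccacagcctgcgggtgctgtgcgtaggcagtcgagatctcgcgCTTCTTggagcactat

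A start at C followed by at least 4 pyrimidines was annotated in 8 of the 40 members (20%), against 3.01% of the 27025 genes in the table. A run of at least 8 pyrimidines touching the 10 bases on either side of the start was found in 19 of 40 (47.5%), against 15.8% of all genes. Searched on both strands of the whole window, the letters CCGGAAG, a form of the ETS core that GABPA and its relatives bind, occurred in 20 of 40 members (50%) and 9.93% of all genes. The letters CTTTCC occurred in 21 members (52.5%, against 29.3%), GGGCGG, the core of the GC box, in 22 (55.0%, against 38.2%), AAGATGGC, a YY1 core, in 3 (7.5%, against 3.19%) and TATAAA in 5 (12.5%, against 15.7%). CTTTCC can lie inside the pyrimidine run, as in Rpl35 and Rps10, so those counts overlap. A match is a description of letters, and a start annotated a few bases off would hide or make a TOP motif.

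Members were among the brightest genes on every array. The median member stood at the 99.7th percentile of its array, with signals of 507, 433, 867 and 541. Here and below, 4 signals in a row are those of ko1, ko2, wild type and heterozygous, in that order. Background was set as the brightest of 27 control probe sets for bacterial transcripts that were not spiked in, and it stood at 5.55, 3.82, 7.57 and 6.92. Of the 46 members, 39 were above it on all 4 arrays, as were 26.2% of the tested genes. Mean signals split the group: 37 members were above 100 and the other 9 at or below 18. Levels of different probe sets depend on their probes, so a dim signal is not read here as a low mRNA level.

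**Figure D1:**
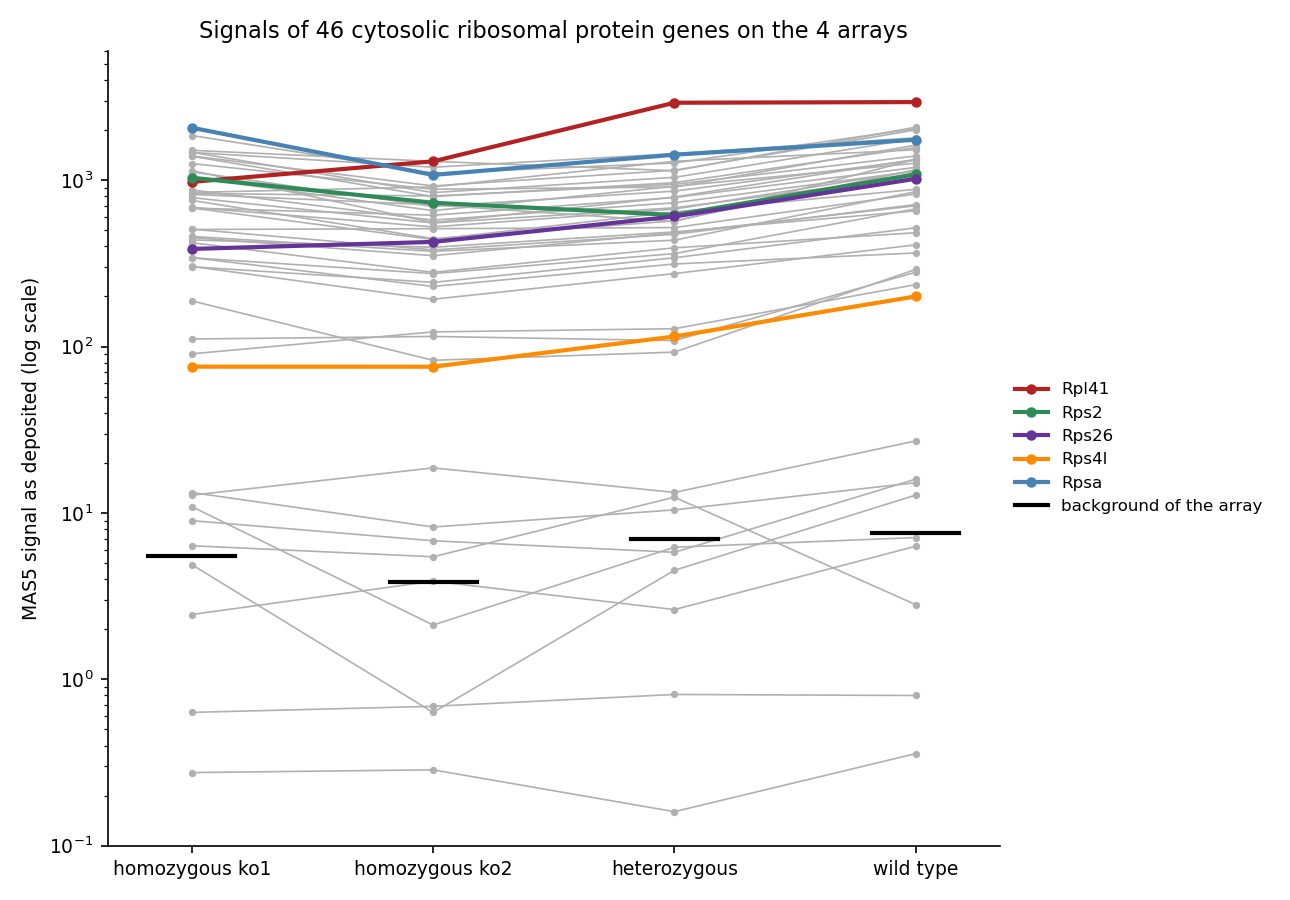
Deposited signals (log scale) of the 46 members on the 4 arrays, with the lines joining values of 1 gene only to guide the eye and black bars at each array's background. Most bright members run nearly in parallel, Rpl41 and Rpl37 are among those that depart from them, and Rps16 and Rpl3l stay below background throughout.

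Arrays differed in overall signal, and in the median the deposited signals of the members followed those of the other genes. Wild type was the highest array in 41 of the 44 tested members, a larger share than the 55.1% of all tested genes. The exceptions were Rpsa, Rps6 and Rpl12. The median log2 difference of homozygous minus wild type was -0.75 over the members and -0.75 over all tested genes. For heterozygous minus wild type it was -0.68 and -0.68, and for homozygous minus heterozygous -0.09 and -0.03. Log2 differences below are therefore relative, that is, minus the median over all tested genes in the same comparison, on the scale log2(signal + 0.675). P-values and calls come from the deposited scale, before that subtraction, so they do not test the relative value printed beside them. In a bulk sample, fewer cells of a type and less RNA per cell cannot be told apart.

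The cultures also differed in identity markers. Of 9 ES cell markers tested, 7 fell in homozygous against wild type (relative median -2.17), and of 13 endoderm markers 8 rose (4.93), where 0.619% of all tested genes fell and 0.401% rose. These calls depended on the fit: over 9 alternatives 0 to 9 ES cell markers fell and 0 to 9 endoderm markers rose. Without the intensity trend 0 of either were called. Under median centring, quantile normalization and cyclic loess, 2, 0 and 2 ES cell markers fell, while 7, 6 and 7 endoderm markers rose. The lists' medians kept their direction throughout. The summed ES cell marker signal was 113, 160, 1067 and 446, and that of the endoderm markers 6999, 3894, 157 and 119. Of 8 fibroblast markers 0 passed (median 1.05; summed signals 53.3, 68.7, 57.8 and 26.9). Arid1a, the gene of BAF250a, read 7.03, 3.57, 109 and 50.4, low in both homozygous lines. The 3′ to 5′ signal ratio of the actin control, a sign of RNA integrity, was 5.01, 2.61, 1.30 and 2.86 on the same arrays. What part these differences have in the members' values was not tested.

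Against wild type, the ribosomal protein mRNAs of the homozygous lines lay close to the median gene. The members' median relative difference was -0.0034, with 22 members above the median gene and 22 below. It moved to 0.21 after quantile normalization and to 0.18 after cyclic loess. The interquartile range of the tested members ran from -0.20 to 0.17, while that of all tested genes ran from -0.63 to 0.74. Within 0.5 of the median gene were 37 of 44 members (84.1%), 38.4% of all tested genes and 47.7% of the 687 brightest genes (the top 5%). No test of this narrower spread was made, since members are not replicates.

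By limma, 0 of the 44 members were called at an adjusted p under 0.05 in this comparison, where 140 of 13730 genes (1.02%) were called. Without adjustment, 3 members had p under 0.05, against 11.9% of all tested genes. The 3 were Rps4l, Rpl27a and Rpl37. The lowest limma adjusted p was 0.292, for Rps4l. Standard errors ran from 0.56 to 1.39 with a median of 0.96, and they were widest for the brightest probe sets. They come largely from the trend over all genes, not from the gene's own values. For Rps28, ko1 and ko2 differed by 0.035 relative to the median gene, while its standard error was 1.27. With errors of this size the absence of calls does not show that any member was unchanged.

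**Figure D2:**
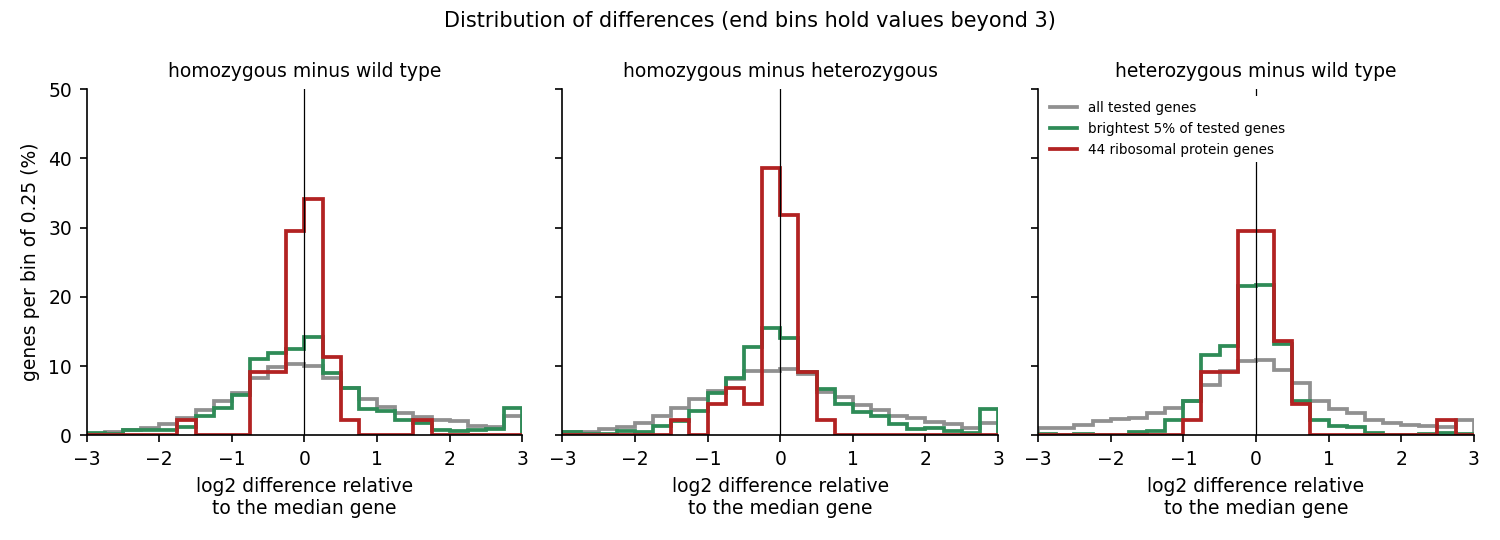
Share of genes (%) in bins of 0.25 of the relative log2 difference for the 44 tested members, the 687 brightest genes and all 13730 tested genes in 3 comparisons. The members form the narrowest peak in each panel, with 84.1%, 84.1% and 81.8% of them within 0.5 of the median gene.

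Small subunit members spanned both sides of the median gene (median 0.05 over 21 tested). Rpsa, which also acts as a laminin receptor, read 2068, 1076, 1750 and 1423. It was highest in ko1 and lowest in ko2, so the homozygous lines enclosed the other arrays. Its difference was 0.52 ± 1.30 (SE; limma adjusted p = 0.936). A second probe set of Rpsa was below background on all 4 arrays, and the mean of both gave -0.18.

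Rps2 read 1035, 732, 1086 and 618, a difference of 0.43 ± 1.01. Once array levels were subtracted, both homozygous lines lay above both others, as they did for Rps28 (1512, 1298, 2082 and 1140; difference 0.17 ± 1.27). Rps3, which lines the mRNA entry channel, stood at 0.31 ± 1.27. None of these differences exceeded its standard error.

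The small subunit also held the lowest of the well measured members. Rps4l, an autosomal paralogue of Rps4x, read 75.7, 75.7, 200 and 115. The homozygous lines nearly coincided and lay below both other arrays. The difference was -0.65 ± 0.56 against wild type and -0.57 ± 0.56 against heterozygous (adjusted p = 0.292 and 0.888, limma). Rps26, which contacts the mRNA at the exit channel, was likewise low in both homozygous lines and highest in wild type, with 386, 426, 1020 and 605 and differences of -0.58 ± 0.86 and -0.55 ± 0.86. Rps9, a protein near the decoding region, read 342, 274, 673 and 362 (-0.39 ± 0.76), but its second probe set above background gave 0.12.

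The X-linked parent gene Rps4x read 459, 374, 853 and 436, a difference of -0.30 ± 0.83 against wild type and -0.04 ± 0.83 against heterozygous. Rps27l, a paralogue of Rps27 that p53 can induce, read 90.4, 123, 236 and 128 (-0.41 ± 0.58). Its parent Rps27, measured by a dim probe set, read 13.3, 8.23, 15.2 and 10.4 (0.23 ± 0.71). Rpl39l, the paralogue of X-linked Rpl39 known from the male germ line, read 8.99, 6.80, 16 and 5.80, the last below background (-0.22 ± 0.80), while Rpl39 read 12.8, 18.7, 27.1 and 13.3 (-0.04 ± 0.63). The 3 tested paralogues with an L suffix were each below the median gene in homozygous against wild type, at a median of -0.41. Each lay below its parent gene in that comparison, which was not tested. The order of Rpl39l and Rpl39 turned without ko2 (-0.20 and -0.47 against wild type) and in the comparison with heterozygous (0.43 and 0.24). Rpl3l, the striated muscle paralogue of Rpl3, was not above background on any array.

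Large subunit members had a median of -0.04 over 21 tested. Rpl41, a very short basic peptide, had the largest difference from heterozygous of all tested members. It read 977, 1298, 2948 and 2923, so the homozygous lines were well apart from both others. The difference was -0.64 ± 1.39 against wild type (95% interval -3.44 to 2.16) and -1.34 ± 1.39 against heterozygous, and heterozygous minus wild type was 0.67 ± 1.61. The next Rpl41 probe set read 394, 295, 572 and 352, with differences of 0.00098 and -0.01 for the homozygous comparisons and -0.02 for heterozygous minus wild type. The next after that read 13.3, 16.2, 29.1 and 15.8 (-0.21 against wild type). The departure was thus that of the brightest probe set alone among the 3 above background. The annotated starts of Rpl41 and Rps26, printed above, lie 77338 bases apart on chromosome 10.

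Rpl37 read 188, 82.7, 291 and 92.6. Wild type and ko1 were high and the other pair low, so genotype did not order the arrays. The differences were -0.47 ± 0.60 against wild type, 0.46 ± 0.60 against heterozygous and -0.96 ± 0.69 for heterozygous minus wild type, the last with the lowest adjusted p of that comparison among members (0.611, limma). Rpl27a read 111, 115, 280 and 109: wild type was high and the other 3 arrays were alike. It stood at -0.56 ± 0.58 against wild type, 0.09 ± 0.58 against heterozygous and -0.68 ± 0.67 for heterozygous minus wild type. Rpl19 was low in heterozygous, with 822, 711, 1334 and 564, which gave 0.47 ± 0.99 for homozygous minus heterozygous. Rpl7 read 343, 230, 365 and 314 (0.37 ± 0.71 against wild type), while both of its other probe sets were below the median gene at -0.28 and -0.30.

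The acidic stalk, through which translation factors dock on the large subunit, was represented by Rplp0 and Rplp2. Rplp0 read 421, 279, 483 and 392 and Rplp2 read 756, 446, 1157 and 569. Their differences of homozygous minus wild type, 0.25 ± 0.76 and -0.25 ± 0.93, were nearly equal in size and opposite in sign, each under its standard error.

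Dim probe sets gave the lowest and the highest value of homozygous minus wild type, and the highest of heterozygous minus wild type. Rpl14 read 4.89, 0.632, 12.8 and 4.52, above background only in wild type, and stood at -1.58 ± 1.19. Rpl12, a protein at the base of the stalk, read 6.35, 5.45, 2.81 and 12.4, below background only in wild type, and stood at 1.66 ± 0.96 for homozygous and 2.59 ± 1.11 for heterozygous against wild type. Rps6, the substrate of the S6 kinases, read 10.9, 2.12, 7.11 and 6.22 and was above background only in ko1. Rps16 was below background on every array and was not tested. No direction is drawn from these probe sets.

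**Figure D3:**
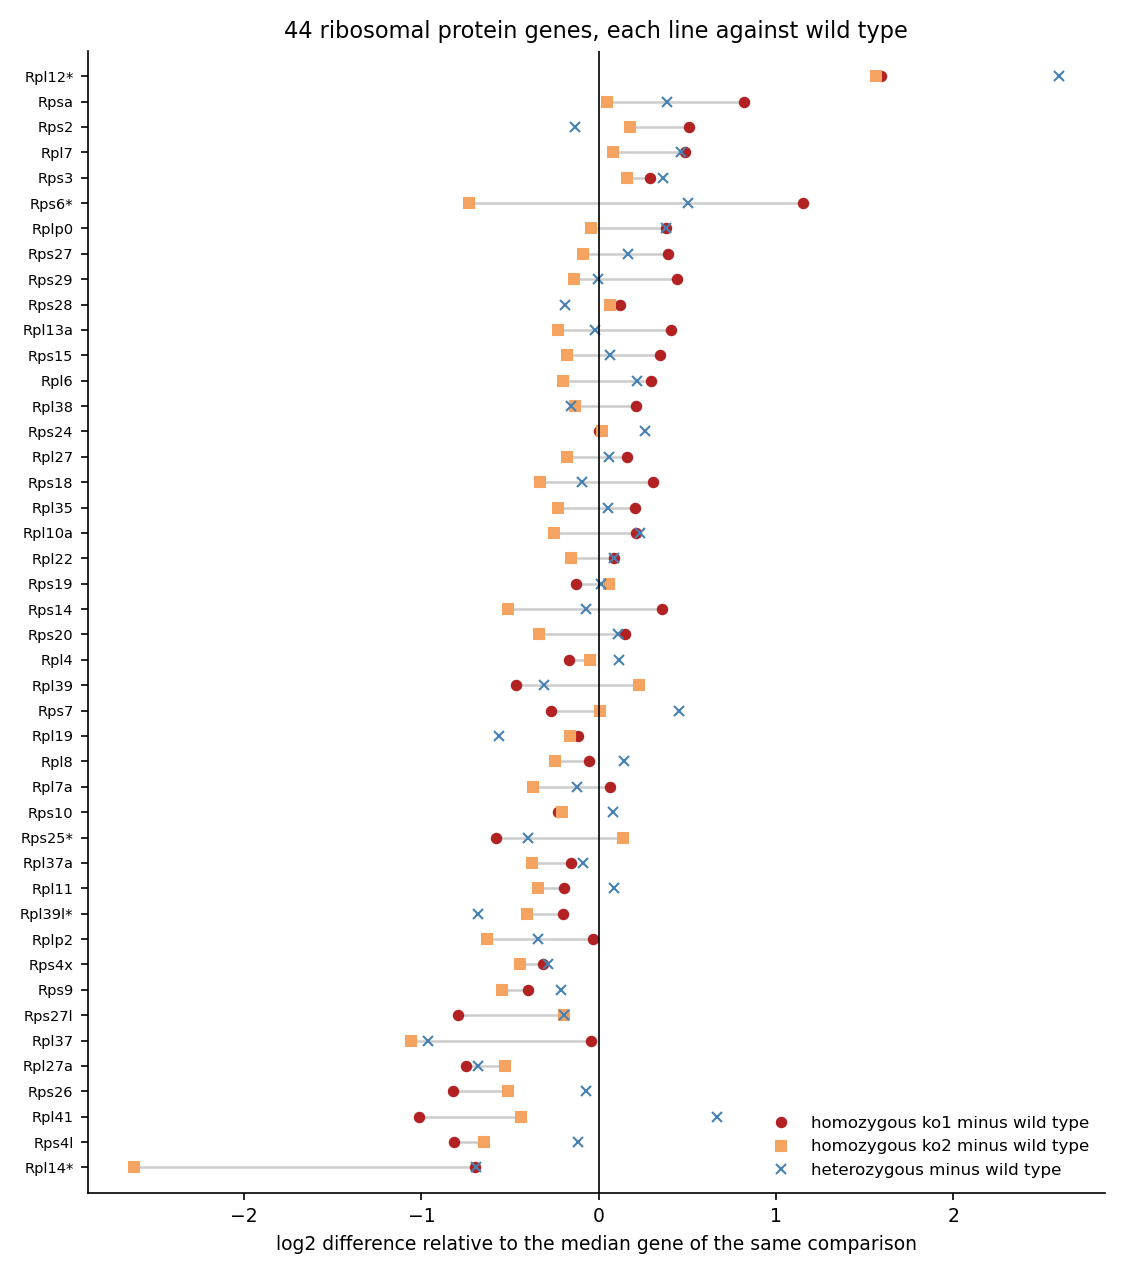
Relative log2 differences from wild type for each of the 44 tested members, with circles for ko1, squares for ko2 and crosses for heterozygous, in the order of their homozygous mean. An asterisk marks a probe set at or below background on at least 1 array. Most points lie within 0.5 of 0, and the points farthest from 0 on either side are those of Rpl12 and Rpl14, both marked. Among unmarked members the lowest points are those of Rpl37 in ko2 (-1.06), Rpl41 in ko1 (-1.01) and Rpl37 in heterozygous (-0.96).

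Against heterozygous, the homozygous lines had a members' median of -0.06, with 19 members above the median gene and 25 below. The interquartile range ran from -0.22 to 0.11, against -0.70 to 0.76 for all tested genes, and 37 of 44 members (84.1%) were within 0.5. By limma 0 members were called, where 104 of 13730 genes (0.757%) were, and 0 members had an unadjusted p under 0.05, against 6.88% of all tested genes. The highest members here were Rps2 (0.53), Rpl19, Rpl37 and Rpl39l, and the lowest were Rpl41, Rpl12 (-0.97), Rpl14 (-0.91) and Rps4l.

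Heterozygous minus wild type, 1 array against 1, had a members' median of 0.0032, with 22 above and 22 below. By limma 0 members and 2 of 13730 genes (0.0146%) were called. Unadjusted, Rpl37 and Rpl27a had p under 0.05, against 7.56% of all tested genes. Within 0.5 were 36 members (81.8%), 40.3% of all tested genes and 69.4% of the brightest. This comparison shares its wild type array with homozygous minus wild type, and Rpl27a and Rpl37 are low in both.

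Both homozygous lines set against wild type and heterozygous together gave 0 called members, where 90 of 13730 genes (0.655%) were called. The lowest limma adjusted p was 0.71 (Rps4l), and 0 members had an unadjusted p under 0.05, against 7.83% of all tested genes. In the deposited signals, ko1 and ko2 were each lower than wild type and heterozygous in 12 of 44 members (27.3%), and in 26.9% of all tested genes. They were each higher in 0 members, against 11.0% of all. With array levels subtracted, 12 members (27.3%) lay below, against 19.5% of all tested genes, and 2 above (4.55%), against 20.1%. After cyclic loess 6 of 44 members lay below, against 20.4% of all tested genes, so the members' share went from above to under that of all genes. The 12 below with array levels subtracted were Rpl4, Rpl8, Rpl11, Rpl14, Rpl37a, Rpl41, Rps4l, Rps4x, Rps9, Rps10, Rps26 and Rps27l.

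The homozygous lines also differed from each other. With array levels subtracted, ko1 minus ko2 had a members' median of 0.22, or 1.16-fold, and 32 of 44 members were higher in ko1. The brightest 5% of genes had a median of 0.21, and 65.4% of them were higher in ko1. Against wild type the members' median was 0.030 in ko1 and -0.20 in ko2, with 22 and 11 members above the median gene. Among bright members the gap was widest upward in Rpl37 (1.00), Rps14 (0.85) and Rpsa (0.76) and downward in Rps27l (-0.62) and Rpl41 (-0.60). The actin ratio also differed between these arrays, at 5.01 in ko1 and 2.61 in ko2, as did that of the GAPDH control, at 2.57 and 1.21. Their part in the gap was not tested.

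Other probe sets of the same genes, which the choice of the brightest had left out, were set beside it. They read the same RNA on the same 4 arrays, so they are not independent measurements. For 18 members there were 37 further probe sets above background on all 4 arrays. The brightest probe set and the median of the others differed by a median of 0.22 for homozygous minus wild type, and lay on the same side of the median gene in 10 of 18. The gap was over 0.5 in 4 of 18, namely Rpl7, Rpl13a, Rpl41 and Rps9. For Rpl13a the brightest probe set gave 0.17, and the others -0.22, -0.39 and -1.26. For Rps28 all 3 probe sets were above the median gene, from 0.14 to 0.44. The probe set of 17 members had a suffix (15 _x_at, 2 _s_at) that marks probes shared with other sequences. Ribosomal protein genes have many processed pseudogenes, which such probes cannot always tell apart from the parent gene. The _x_at members had a median of 0.07 and those with neither suffix -0.05.

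**Figure D4:**
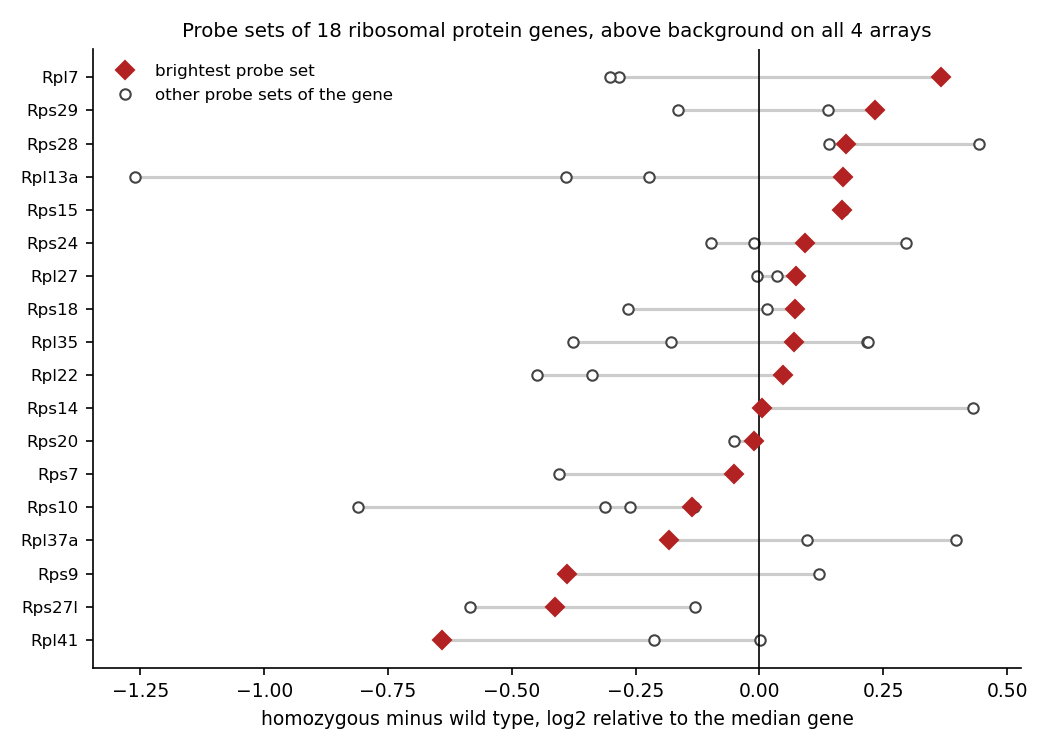
Relative log2 difference of homozygous minus wild type on the brightest probe set (diamonds) and on the other probe sets above background (open circles) of 18 members. The brightest probe set and the median of the others of the same gene differ by a median of 0.22. For Rpl41 the others lie at -0.21 and 0.00098 while the brightest lies at -0.64.

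Members with and without the promoter runs shown above had similar medians, with no test made. The 8 members with a C start followed by pyrimidines had a median of 0.07 for homozygous minus wild type, and the other 30 tested members with a window -0.03. Of these 38, the 19 with a run of at least 8 pyrimidines had a median of -0.06 and the 19 without 0.06. Of the 6 members of the second set above, Rps26 and Rpl27a have such a run, of 9 and 20 bases, and Rpl41, Rpsa, Rpl37 and Rps2 do not.

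Ribosomal proteins just outside the rule by their symbols were measured too. Rps3a1 read 726, 588, 1340 and 969 (-0.29 ± 1.02). Fau, which encodes the ribosomal protein eS30 fused to a ubiquitin-like domain, read 279, 696, 1400 and 424 (-0.92 ± 0.89). Rpl22l1, a paralogue of Rpl22, read 18.5, 24.3, 78.9 and 17.5 (-1.12 ± 0.56, limma adjusted p = 0.103), with wild type far above the other 3 arrays, and Rpl22 itself stood at 0.05 ± 0.83. Rpl7l1 stood at -0.30 ± 0.61.

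The rest of the translation machinery was described by fixed lists, against a background of 0.401% of tested genes called higher and 0.619% called lower in homozygous against wild type. Of 76 mitochondrial ribosomal proteins, which translate the organelle's own mRNAs, 0 rose and 1 fell, Mrpl34 (9.82, 9.27, 49.5 and 22.6; -1.55 ± 0.61, limma adjusted p = 0.0491), and the median was -0.22. Of 8 elongation and release factors 0 passed (median -0.08). Eef2, the translocase, stood at 0.12 ± 0.92 and Eef1e1 at -0.76 ± 0.60. Of 32 initiation factors 0 passed (median -0.08). Eif4e, which binds the mRNA cap, read 7.39, 16, 52.5 and 37.8 (-1.45 ± 0.60, limma adjusted p = 0.0538). Of 15 other genes with TOP mRNAs 0 rose and 1 fell, Nap1l1, a histone chaperone (19.3, 27.9, 95.9 and 70.7; -1.27 ± 0.54, limma adjusted p = 0.0491), and the median was -0.04.

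Ribosome assembly factors, which process rRNA and build the subunits, lay mostly below the median gene. Of 53 such genes 0 rose, 2 fell and 51 did not pass, and 45 lay below the median gene, with a median of -0.51 (-0.48 in ko1 and -0.55 in ko2). Against heterozygous the median was -0.47 with 0 called, and for heterozygous minus wild type it was 0.02. Nop56, a core protein of the box C/D particles that guide rRNA methylation, read 33.7, 43.3, 161 and 110 (-1.31 ± 0.54, limma adjusted p = 0.0423). Nolc1, a nucleolar phosphoprotein, read 23.9, 18.4, 90.5 and 30.7 (-1.33 ± 0.55, adjusted p = 0.046). Of 10 genes of RNA polymerase I and its factors 0 passed (median -0.21), with Ubtf, which binds ribosomal DNA, at -1.15 ± 0.57. Of 13 growth regulators 0 rose and 1 fell, Mycn (21.3, 14.2, 80.6 and 55.7; -1.42 ± 0.55, adjusted p = 0.0327), with a median of -0.24. The calls of Mrpl34, Nap1l1, Nop56, Nolc1 and Mycn each ended under 7 of 9 alternatives, with limma adjusted p up to 0.62. Median centring, quantile normalization and cyclic loess were among the 7 for every one of these genes. Each main p-value tests the deposited difference, which includes the median of -0.75 over all tested genes that the printed values leave out. Assembly factors were not alone in lying low against heterozygous. The medians there were -0.35 for initiation factors, -0.37 for elongation and release factors and -0.39 for growth regulators. They were -0.25 for RNA polymerase I, -0.12 for other genes with TOP mRNAs and 0.09 for mitochondrial ribosomal proteins. The difference between the lists was not tested. Called ES cell markers fell in homozygous against wild type, and their part in these values was not tested.

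**Figure D5:**
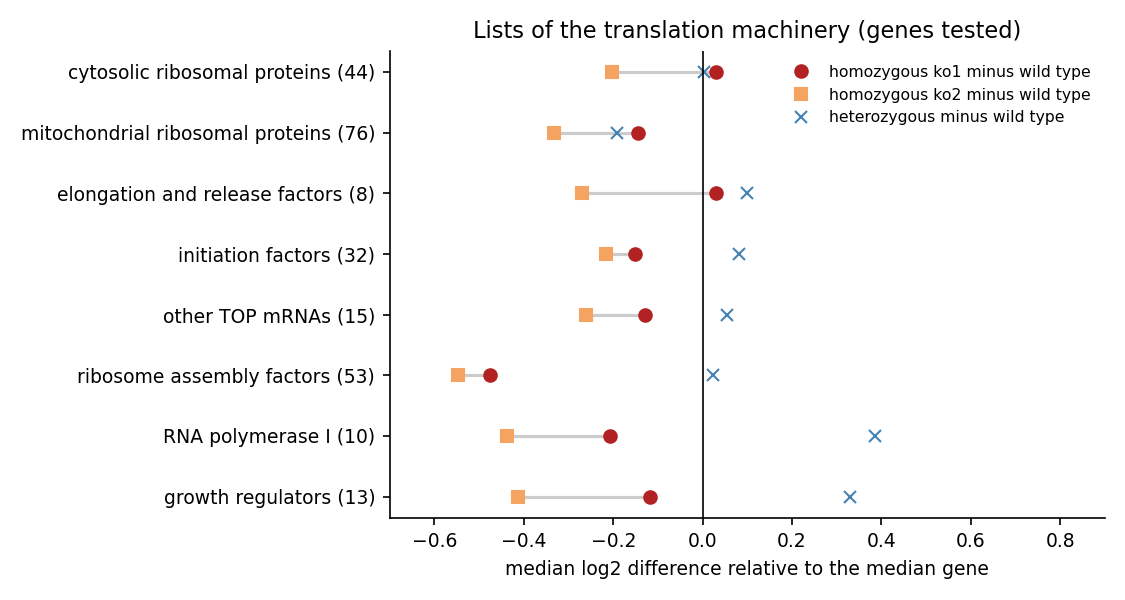
Median relative log2 difference from wild type of each list of the translation machinery in ko1 (circles), ko2 (squares) and heterozygous (crosses), with the number of genes tested in parentheses. Cytosolic ribosomal proteins lie at 0.030 and -0.20 in the homozygous lines and ribosome assembly factors at -0.48 and -0.55.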

How the data were processed

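Total RNA of 4 cultures was measured on 1 array each. The authors deposited linear signal intensities per probe set, which the submitters' processing notes credit to MAS5. Between-array scaling was kept as deposited, with a target not given in the sources used here. Of 45101 probe sets, 34958 had 1 gene symbol in the platform annotation. Another 110 probe sets that list a ribosomal protein with other symbols were left out. A gene was represented by its brightest probe set, and tested when that set's mean exceeded 2.55 (40th percentile). Values are log2(signal + 0.675), the pseudocount being the 20th percentile of the deposited signals. On this scale changes of dim genes are understated.

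Tests used limma 3.58.1 in R 4.3.3 (lmFit, 1 mean per genotype, eBayes with an intensity trend, Benjamini-Hochberg over 13730 genes). With 1 residual degree of freedom, and 47.6 in total after borrowing across genes, p-values rest largely on the trend. The fit of homozygous against both other genotypes had 2 residual degrees. Tested on simulated data, the fit called most large changes. The share of wrong calls came out slightly above the nominal level, and the limit set for it was widened after that was seen. The simulated arrays did not differ in overall level, as the deposited ones do, so that share need not hold for the calls given here. No depth applies to arrays; their number limits precision.

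Array levels are the median deviation of the tested genes from their own means. Named members were the 8 highest and 8 lowest in homozygous minus wild type, the 4 highest and lowest in the other comparisons, the stalk genes, and paralogues with their parents; Rps28, Rps14, Rpl13a and the promoters shown were chosen after their values were seen. From each fixed list the called genes were named, and otherwise some of those with large differences. The members and lists were chosen with earlier results of these data known. Alternatives covered pseudocount, scaling, filter, probe set choice, variance trend and leaving out an array. Those for the fixed lists were chosen after seeing the data.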

Additional observations from a re-analysis of the deposited data

How the results depend on the processing

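The count of called members was 0 of those tested in every alternative run for each of the 4 comparisons, with 0 to 6 members at an unadjusted p under 0.05. The lowest limma adjusted p of a member ranged over the alternatives from 0.238 to 0.854 for homozygous minus wild type, 0.702 to 0.887 for homozygous minus heterozygous, 0.545 to 1.0 for heterozygous minus wild type and 0.258 to 1.0 for homozygous against both others. Calls over all genes ranged more widely: 0 to 203 around 140, 0 to 111 around 104, 0 to 2 around 2 and 8 to 232 around 90, in the same order. The members' median for homozygous minus wild type, -0.0034, moved to 0.21 after quantile normalization and 0.18 after cyclic loess, and ranged from -0.20 to 0.030 when either homozygous line was left out. For homozygous minus heterozygous, -0.06, the range was -0.25 to -0.014. Without a homozygous line the fit of 3 genotypes has no residual degrees of freedom, so these are values with no test. Both homozygous lines lay below both others in 12 members, and in 6 after cyclic loess, where 20.4% of all tested genes did. Among 63 differences of 21 named members, 46 of 582 recomputed values changed sign, 5 of them where the difference was over 0.5: Rpl41 in all 3 comparisons on its probe set with neither suffix (0.50, 0.65 and -0.18), which was below background in wild type and heterozygous, and Rps6 for heterozygous minus wild type (-0.20) and Rpsa for homozygous minus wild type (-0.18) as means of probe sets. The ribosome assembly median ranged from -0.64 to -0.42 against wild type and from -0.54 to -0.45 against heterozygous. The cause of these moves was not tested. No paired analysis was possible because the labels state no pairing of the arrays, and wild type and heterozygous had 1 array each.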
